A study of Mus musculus with 4 samples.

Results

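The transcripts described here encode proteins of the Bcl2 family, which decide at the mitochondrion whether a cell survives or dies. Probe sets were taken as members when the array annotation named exactly 1 gene for them and that gene was *Bcl2*, *Bcl2l1*, *Bcl2l2*, *Mcl1*, *Bax*, *Bak1*, *Bid*, *Bcl2l11*, *Bbc3* or *Bnip3l*. This rule found 10 probe sets of 9 genes among 21044 probe sets of 19452 genes. *Bnip3l* had 2 probe sets, which the annotation gives the same accessions, and each of the other 8 genes had 1. *Bax* was matched by no probe set of the annotation used and was not analysed here. The RNA came from immunoprecipitates of CUGBP1, made with the monoclonal antibody 3B1 (CUGBP1 IP, 2 arrays), and from mock precipitates made with normal IgG (control IgG, 2 arrays). Both used lysate of proliferating C2C12 (LKO1) cells kept below 70% confluency. C2C12 cells are mouse myoblasts, and the stable derivative LKO1 carries an empty lentiviral vector under puromycin selection, so all 4 arrays share 1 line and 1 vector. Input RNA was not analysed here, so how much of a transcript the cells contained and how much of it came down with CUGBP1 cannot be told apart.

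Pro-survival family members such as *Bcl2*, Bcl-xL (from *Bcl2l1*), Bcl-w (from *Bcl2l2*) and *Mcl1* hold the pore-forming members *Bax* and *Bak1* in check at the outer mitochondrial membrane. The BH3-only proteins, among them *Bid*, Bim (from *Bcl2l11*) and Puma (from *Bbc3*), bind and neutralise the pro-survival members or activate the pore formers, after which cytochrome c leaves the mitochondrion and caspases are switched on. *Bnip3l* encodes Nix, a related protein of the mitochondrial surface best known as a receptor for the removal of mitochondria by autophagy. CUGBP1, the product of *Celf1*, binds GU-rich stretches of RNA, mostly in 3′UTRs, and promotes deadenylation and decay of the transcripts it holds. The comparison asked which of these transcripts were recovered with CUGBP1 beyond what control IgG brought down.

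Values are linear intensities divided by the 5th percentile of the same array, so a probe set without transcript reads about 1. The 95th percentile of probe sets for olfactory and vomeronasal receptors, which myoblasts should lack, served as the limit of the background range and was 1.23 and 1.29 for CUGBP1 IP, against 1.09 and 1.16 for control IgG. The median of all tested probe sets was 1.31 and 1.5 in the CUGBP1 IP, compared with 1.08 and 1.22 in control IgG. The 2 control IgG arrays stood further apart (r = 0.943 across probe sets, on log2 values) than the 2 CUGBP1 IP arrays (0.981), and control IgG replicate 2 read above replicate 1 for 86.3% of all tested probe sets. Of 6 myoblast markers, 5 were above the background range on all 4 arrays, with summed values of 113 and 155 in the CUGBP1 IP, compared with 41.0 and 113 in control IgG. Most of each sum was *Vim*, at 77.89 and 114.15 in the CUGBP1 IP, compared with 32.14 and 98.05 in control IgG. Of 10 markers of other cell types 8 were measured, and 0 of these were above the background range on all 4 arrays (sums of 9.14 and 9.37 in the CUGBP1 IP, compared with 8.19 and 8.68 in control IgG). The part of the difference between the control IgG arrays in the results was not tested beyond the values given against each of them.

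Transcripts of 1 member, *Bcl2l1*, were called higher in the CUGBP1 IP, and 0 were called lower. Calls are adjusted p-values under 0.05 from limma, a linear model fitted over all 21044 probe sets. In this fit the estimated prior degrees of freedom were infinite, so each standard error was set by the spread of all probe sets at that intensity and not by the probe set's own 2 arrays per group. By this rule 1.95% of all tested probe sets were called higher and 0.138% lower, and a single call among 10 is too few to set against those shares. At an unadjusted p under 0.05, 3 of 10 members were higher, against 28.6% of all tested probe sets. Both CUGBP1 IP arrays lay above both control IgG arrays for 9 of 10 members, which compares with 66.3% of all tested probe sets. The signal-to-negative ratio, which divides the CUGBP1 IP mean by the control IgG mean, was used by the study to take the top 5% as associated with CUGBP1. Here the 95th percentile of that ratio was 2.57, so that 5% of all tested probe sets reached it, and 1 of the 10 members did. The study ranked its own, smaller set of transcripts, so its cutoff need not equal this one.

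**Figure D1:**
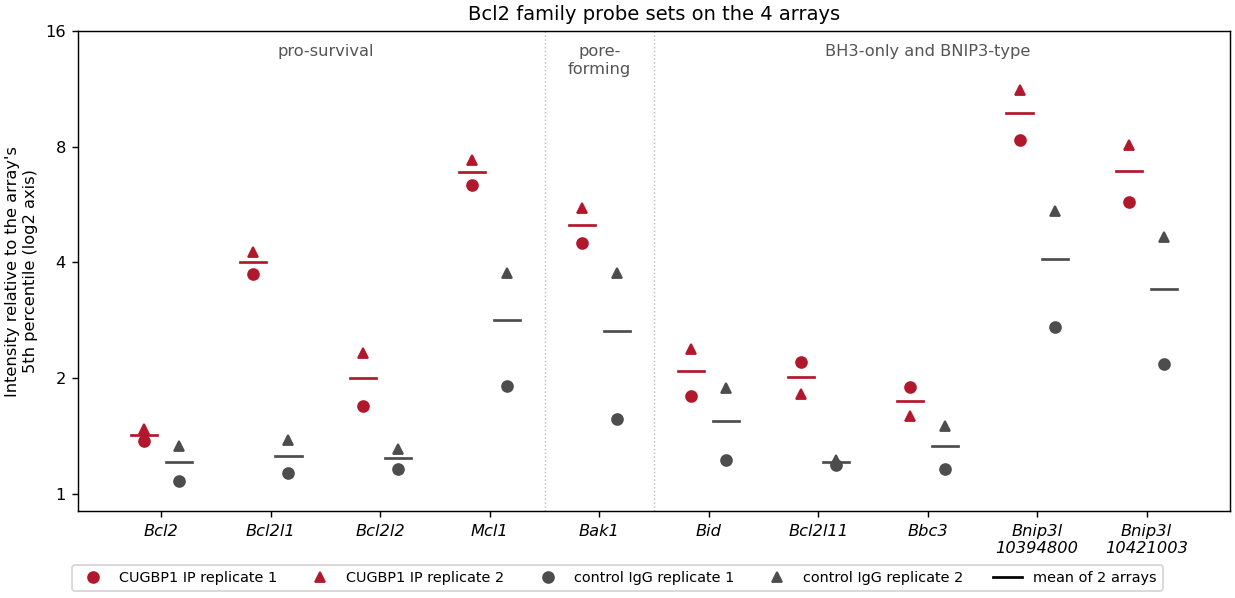
Intensity in units of each array's own 5th percentile (log2 axis) of the 10 Bcl2 family probe sets, with 1 symbol per array (circles, replicate 1; triangles, replicate 2) and lines at the means of 2 arrays. The CUGBP1 IP points of *Bcl2l1*, at 3.74 and 4.26, sit far above its control IgG points at 1.13 and 1.38, while for *Bid* the groups overlap.

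The pro-survival transcripts held both the highest and the lowest ratio among the members. *Bcl2l1* (probe set 10488655), whose main product Bcl-xL guards the outer mitochondrial membrane, read 3.74 and 4.26 in the CUGBP1 IP, compared with 1.13 and 1.38 in control IgG. Every CUGBP1 IP value was at least 2.71 times every control IgG value, and the control values were above their background limits of 1.09 and 1.16. *Bcl2l1* rose, averaging 4.00 ± 0.368 in the CUGBP1 IP, against 1.26 ± 0.177 with control IgG (SD over 2 arrays each), with a ratio of 3.19 and a log2 difference of 1.68 (SE 0.45, 95% interval 0.79 to 2.56, limma adjusted p = 0.0268). Its ratio ranked 666 of 21044 probe sets. The probe set gives 1 value for the gene, so the long and short splice forms, Bcl-xL and Bcl-xS, which have opposite effects on survival, cannot be told apart.

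*Mcl1* (probe set 10494306), a short-lived guardian against Bak, read 6.37 and 7.38 in the CUGBP1 IP, compared with 1.91 and 3.75 in control IgG. The groups did not overlap, but the higher control array read 1.96 times the lower one. The ratio of 2.43 stood just under the 95th percentile, and the log2 difference of 1.36 had a 95% interval of -0.32 to 3.04 (limma adjusted p = 0.231). *Mcl1* therefore missed the threshold with an interval that contains the point estimate of *Bcl2l1*.

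*Bcl2l2* (probe set 10415111), which encodes the Bcl-w protein, read 1.69 and 2.32 in the CUGBP1 IP, compared with 1.16 and 1.31 in control IgG. All 4 values were low, the 2 control values close to the background range, and the groups did not overlap. The ratio was 1.62 and the log2 difference 0.68 (95% interval 0.14 to 1.23, limma adjusted p = 0.119, unadjusted p = 0.0136).

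*Bcl2* itself (probe set 10357043), the founding pro-survival gene of the family, read 1.37 and 1.47 in the CUGBP1 IP, compared with 1.08 and 1.33 in control IgG. Control IgG replicate 1 was inside the background range, and the lower CUGBP1 IP array exceeded the higher control array by a factor of 1.03. The ratio of 1.18 lay below the median ratio of all tested probe sets, 1.22, and the log2 difference was 0.24 (95% interval -0.14 to 0.63, limma adjusted p = 0.318). The intervals of *Bcl2* and *Bcl2l1* did not overlap, but all values of *Bcl2* were low, near the floor of about 1. The difference between these transcripts was not tested.

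Among the pore formers, *Bak1* (probe set 10449303) was the member measured. It read 4.49 and 5.53 in the CUGBP1 IP, compared with 1.56 and 3.75 in control IgG. The control arrays differed by a factor of 2.40, the widest gap of the 10 probe sets, and the higher one came within a factor of 1.20 of the lower CUGBP1 IP array. The ratio was 1.89 and the log2 difference 1.04 (95% interval -0.37 to 2.46, limma adjusted p = 0.262).

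Of the BH3-only transcripts, *Bcl2l11* came nearest to the threshold. *Bcl2l11* (probe set 10475866), which encodes Bim, an activator of Bax and Bak that also binds every pro-survival member, read 2.20 and 1.82 in the CUGBP1 IP, compared with 1.19 and 1.22 in control IgG. Its control arrays were the closest pair among the members, at a factor of 1.03, and the groups did not overlap. The ratio was 1.67 and the log2 difference 0.73 (SE 0.27, 95% interval 0.19 to 1.27, limma adjusted p = 0.0981, unadjusted p = 0.00767). With arrays scaled to their medians *Bcl2l11* was called (log2 difference 0.44, limma adjusted p = 0.0353), and with quantile normalization its log2 difference was 0.13 (limma adjusted p = 0.800).

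*Bid* (probe set 10547531), which links death receptors to the mitochondrion once caspase-8 has cut it, read 1.80 and 2.38 in the CUGBP1 IP, compared with 1.22 and 1.88 in control IgG. It was the 1 member whose groups overlapped, since control IgG replicate 2 read above CUGBP1 IP replicate 1. The ratio was 1.35 (log2 difference 0.45, 95% interval -0.20 to 1.10, limma adjusted p = 0.284).

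*Bbc3* (probe set 10550290), a transcriptional target of p53 that encodes Puma, read 1.89 and 1.59 in the CUGBP1 IP, compared with 1.16 and 1.5 in control IgG. The groups touched within a factor of 1.06. The ratio was 1.31 (log2 difference 0.39, 95% interval -0.12 to 0.91, limma adjusted p = 0.249). *Bbc3* and *Bcl2l11* were the 2 members that read higher in CUGBP1 IP replicate 1 than in replicate 2, and the other 8 probe sets ran the other way. Replicate 2 was above replicate 1 for 79.0% of all tested probe sets.

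The mitophagy receptor transcript *Bnip3l* gave like values on its 2 probe sets. Probe set 10394800 read 8.33 and 11.25 in the CUGBP1 IP, compared with 2.72 and 5.45 in control IgG, a ratio of 2.40 (log2 difference 1.33, 95% interval -0.78 to 3.44, limma adjusted p = 0.320). Probe set 10421003 read 5.76 and 8.10 in the CUGBP1 IP, compared with 2.17 and 4.66 in control IgG, a ratio of 2.03 (log2 difference 1.10, 95% interval -0.68 to 2.89, limma adjusted p = 0.328). On both, the groups did not overlap and the control arrays differed about as much as the groups, by factors of 2.00 and 2.15. The annotation assigns the 2 probe sets to the same transcripts, so they were not taken as independent measurements of *Bnip3l*.

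**Figure D2:**
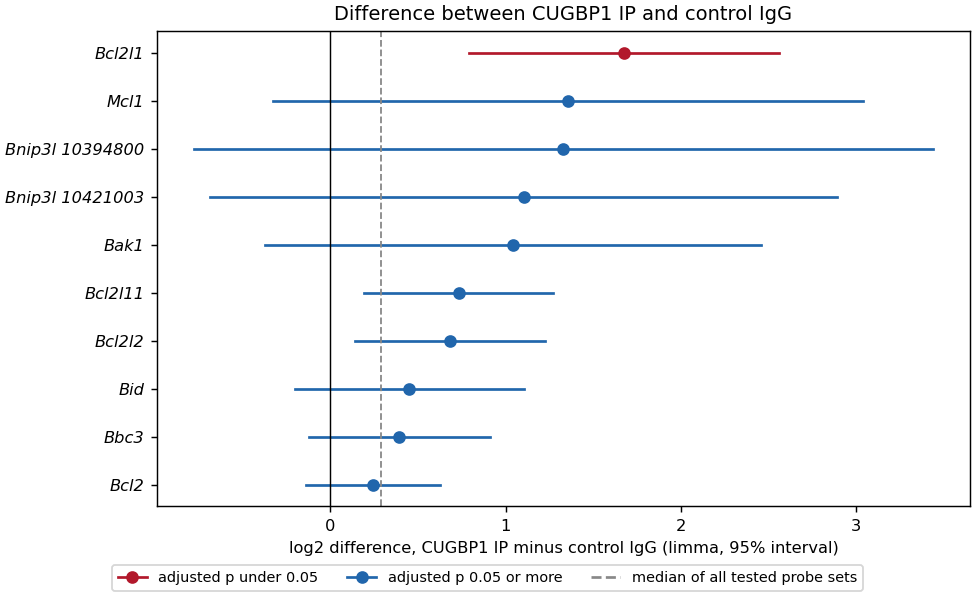
Log2 difference (CUGBP1 IP minus control IgG) of each Bcl2 family probe set with its 95% interval from limma, ordered by size from the top, with the dashed line at the median of all tested probe sets, 0.29. The red interval of *Bcl2l1* (0.79 to 2.56) lies right of that line, while the intervals of *Mcl1* and *Bnip3l* are wide and cross 0. With quantile normalization, which is not drawn here, 3 of the 10 differences were above 0, against 44.9% of all tested probe sets.

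Grouped by role, the pro-survival probe sets had a median ratio of 2.03 (4 probe sets, 1 called) and the pro-death probe sets 1.78 (6 probe sets, 0 called). The pro-death group holds both probe sets of *Bnip3l* (ratios 2.40 and 2.03), so that gene entered its median 2 times. At an unadjusted p under 0.05, 2 of the 4 pro-survival and 1 of the 6 pro-death probe sets were higher, against 28.6% of all tested probe sets. The ratios of these groups ran from 1.18 to 3.19 and from 1.31 to 2.40, so they interleave, and no difference between roles was tested. Over all 10 members the median ratio was 1.78, against 1.22 over all tested probe sets. The median log2 difference was 0.89, which is 0.60 above that of all tested probe sets (0.29), with 9 of 10 members above it. Among probe sets above background on 2 or more arrays, members were 0.35 above the median, with 7 of 10 above it. A probe set can pass this filter on its 2 CUGBP1 IP arrays alone, so the filter favours probe sets that are high there. Of those that passed, 99.8% had a log2 difference above 0. Of the members, 9 of 10 were above background on all 4 arrays, against 7727 of all 21044 tested probe sets. All 10 log2 differences were above 0, as were 94.0% of those of all tested probe sets. With quantile normalization 3 of the 10 were (*Bcl2l1*, *Bcl2l2* and *Bcl2l11*), against 44.9% of all tested probe sets. The members' median was then -0.08 relative to all.

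How a member compared with control IgG depended on which control array was used. The probe sets of *Bcl2l1*, *Bcl2l2*, *Bcl2l11*, *Bcl2* and *Bbc3* read no more than 1.3 times as much on control IgG replicate 2 as on replicate 1, and the other 5 read more than 1.5 times as much. The split follows the control level: the mean in control IgG was 1.21 to 1.33 for the first 5, near the floor of about 1, and 1.55 to 4.09 for the other 5. Against control IgG replicate 1 alone, the mean of the CUGBP1 IP arrays was 3.54 times the control for *Bcl2l1*, 3.60 times for *Mcl1*, 3.60 and 3.19 times for *Bnip3l* and 3.21 times for *Bak1*. Against control IgG replicate 2 alone these factors were 2.90 for *Bcl2l1*, 1.83 for *Mcl1*, 1.80 and 1.49 for *Bnip3l* and 1.34 for *Bak1*. Ratios of all 10 probe sets were above 1 against either control array, down to 1.07 for *Bcl2* against replicate 2.

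The place of *Bcl2l1* in the top 5% also turned on the control array. Without control IgG replicate 1 its ratio of 2.90 was above the 95th percentile of 2.12, at percentile 97.5. Without control IgG replicate 2 its ratio of 3.54 was below the 95th percentile of 3.97, at percentile 93.5, and 0 of 10 members were in the top 5%. With either CUGBP1 IP array left out it remained there, with ratios of 3.39 and 2.98. Among probe sets above background on 2 or more arrays its ratio of 3.19 was just below the 95th percentile of 3.24.

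**Figure D3:**
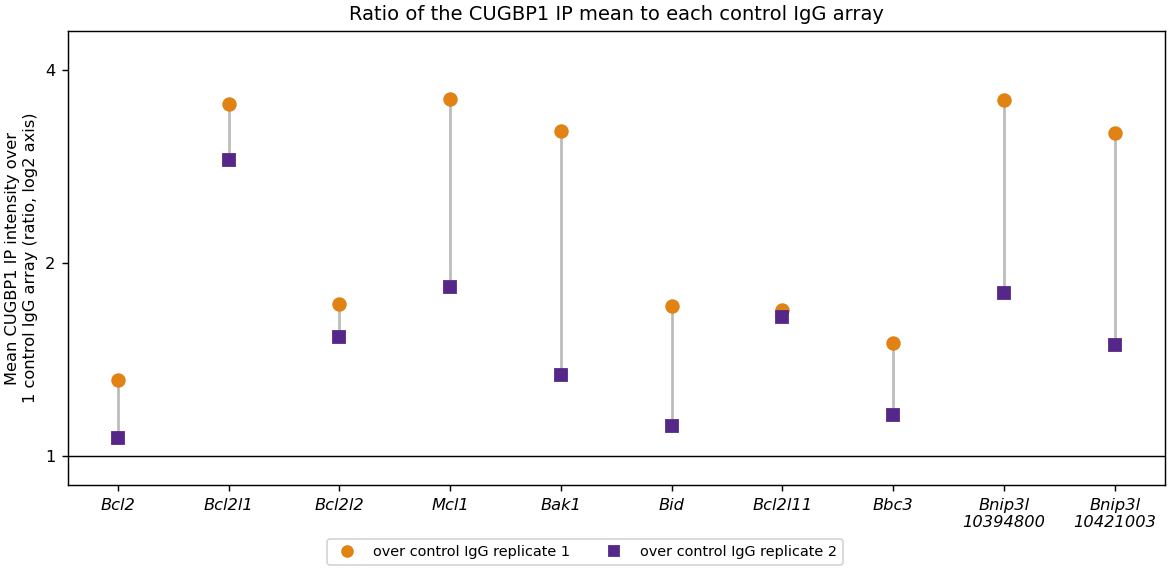
Mean CUGBP1 IP intensity of each Bcl2 family probe set over control IgG replicate 1 (orange circles) and over control IgG replicate 2 (purple squares), on a log2 axis. The 2 symbols of *Bcl2l1* lie at 3.54 and 2.90, whereas those of *Bak1* lie at 3.21 and 1.34.

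In the deposited scaling the bulk of the values was shifted upward in the CUGBP1 IP, and the alternative scalings remove that shift in different ways. With arrays scaled to their medians, the median log2 difference of all tested probe sets was 0.00, and 9 of 10 members were above 0, with *Bcl2* at -0.04. *Bcl2l1* was then at 1.39 (limma adjusted p = 0.000401). With quantile normalization the median of all was -0.02, and *Bcl2l1* was at 0.89 (limma adjusted p = 0.0109) and still called. *Mcl1*, *Bak1* and the 2 probe sets of *Bnip3l*, with log2 differences from 1.04 to 1.36 as deposited, were at -0.07, -0.19, -0.26 and -0.38 with quantile normalization. Which of these scalings is nearer to the amounts of RNA cannot be told from the 4 arrays. The call of *Bcl2l1* held in 5 of 10 alternative fits (limma adjusted p from 0.000401 to 0.0290) and was lost in the other 5, which were the fit without the intensity trend (limma adjusted p = 0.143) and those with 1 array left out (0.172 to 0.663), where limma called 0 of all tested probe sets. In these 5 fits the total degrees of freedom were 3.24 to 4.30, against 42088 in the fit with all arrays and the trend. Of the 5 fits in which the call held, 1 took the replicate number as a block. That fit called 56.1% of all tested probe sets higher.

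**Figure D4:**
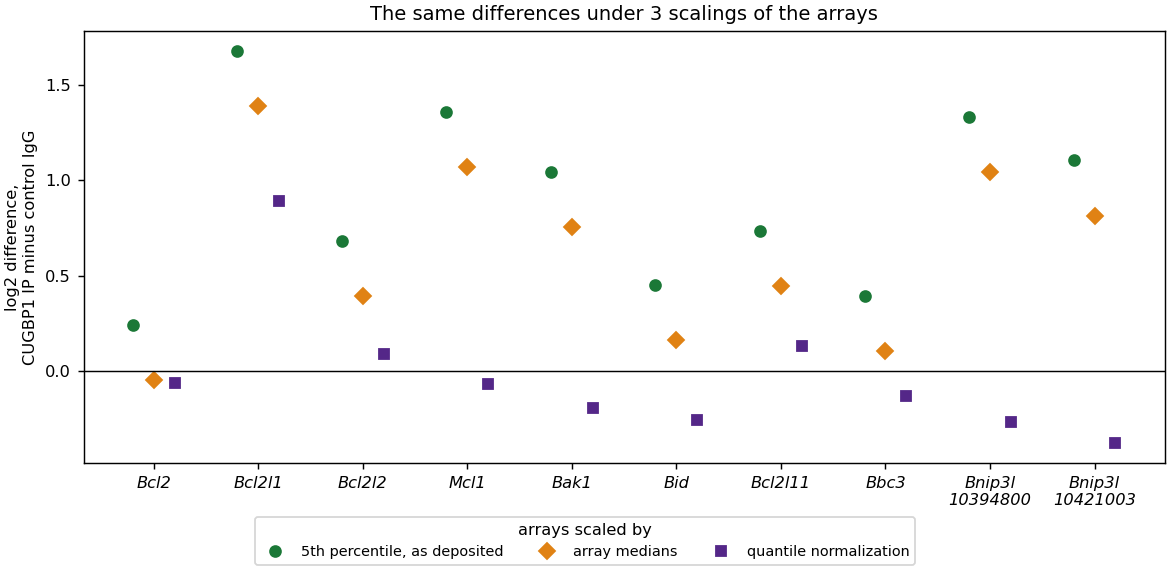
Log2 difference (CUGBP1 IP minus control IgG) of each Bcl2 family probe set with arrays scaled by the 5th percentile as deposited (green circles), by their medians (orange diamonds) and by quantile normalization (purple squares). *Bcl2l1* stays above 0 in all 3 scalings, at 1.68, 1.39 and 0.89, while *Bak1* is at 1.04, 0.75 and -0.19.

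Other genes of the family were set beside the members. Of 15 further family genes, 12 were measured by 13 probe sets, of which 0 were called in either direction. At an unadjusted p under 0.05, 6 of the 13 were higher, against 28.6% of all tested probe sets. Their median log2 difference was 0.20 above that of all tested probe sets (0.07 with quantile normalization), and 1 was in the top 5%. That median was 0.077 without control IgG replicate 1 and 0.42 without control IgG replicate 2. *Bnip3*, the closest relative of *Bnip3l* and likewise a mitophagy receptor, had the highest ratio, with 5.43 and 7.18 in the CUGBP1 IP, compared with 1.59 and 3.19 in control IgG on probe set 10414269 (ratio 2.64, limma adjusted p = 0.177). Its other probe set had a ratio of 2.24. *Bcl2l10* was lowest, with 0.97 and 1.15 in the CUGBP1 IP, compared with 1.03 and 1.03 in control IgG, all within the background range.

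Downstream of the family, the 10 genes of the mitochondrial death pathway had 15 probe sets, of which 0 were called. At an unadjusted p under 0.05, 4 of the 15 were higher, against 28.6% of all tested probe sets. *Vdac2*, *Vdac3* and *Cycs* each entered with more than 1 probe set. Probe sets 10407921 and 10407926 of *Vdac3* read the same on every array. *Xiap*, the inhibitor of the caspases that cytochrome c release sets off, had the highest ratio, with 8.80 and 13.10 in the CUGBP1 IP, compared with 1.42 and 1.92 in control IgG (ratio 6.56). It narrowly missed the threshold (log2 difference 2.70, SE 0.85, limma adjusted p = 0.0553). *Xiap* was called in other fits, among them those with arrays scaled to their medians (limma adjusted p = 0.0195) and with quantile normalization (limma adjusted p = 0.00942). Without the intensity trend it was not called (limma adjusted p = 0.143). With 1 array left out its log2 difference ran from 2.41 to 2.99. *Endog*, a mitochondrial nuclease, was lowest, with 1.31 and 1.53 in the CUGBP1 IP, compared with 1.22 and 1.38 in control IgG (ratio 1.09). The list's median was 0.57 above that of all tested probe sets as deposited and -0.33 relative to them with quantile normalization. It was 0.13 without control IgG replicate 1, 1.03 without control IgG replicate 2, 0.31 without CUGBP1 IP replicate 2 and 0.35 among probe sets above background on 2 or more arrays.

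Of 13 genes whose products bind family proteins or control their turnover, 12 were measured by 16 probe sets, with 0 called. At an unadjusted p under 0.05, 6 of the 16 were higher, against 28.6% of all tested probe sets. The 4 in the top 5% were *Ywhaz* (probe sets 10493891 and 10428204), *Dynll2* and *Dynll1*. *Dynll1* read 27.97 and 47.38 in the CUGBP1 IP, compared with 4.25 and 24.06 in control IgG. *Tpt1* and *Ywhaz* entered with more than 1 probe set. *Ywhaz*, an adaptor protein that can hold the phosphorylated BH3-only protein Bad in the cytosol, had the highest ratio, with 28.00 and 43.21 in the CUGBP1 IP, compared with 4.91 and 13.66 in control IgG at probe set 10493891 (ratio 3.83, limma adjusted p = 0.238). *Fbxw7*, a ubiquitin ligase component that marks Mcl1 for destruction, had the lowest measured ratio, with 1.16 and 1.32 in the CUGBP1 IP, compared with 1.03 and 1.13 in control IgG, and only CUGBP1 IP replicate 2 was above the background range. The list's median was 0.44 above that of all tested probe sets as deposited and -0.01 relative to them with quantile normalization. It was 0.26 without control IgG replicate 1, 0.73 without control IgG replicate 2, 0.29 without CUGBP1 IP replicate 2 and 0.19 among probe sets above background on 2 or more arrays.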

How the data were processed

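RNA of 2 CUGBP1 immunoprecipitates and 2 control IgG precipitates was hybridized to Affymetrix Mouse Gene 1.0 ST arrays. For every array the deposited table gives linear intensities by probe set, which the authors divided by the 5th percentile of that array. How probes were summarised is not given in the sources used here, nor is any background subtraction.

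The table lists 25175 probe sets. The platform annotation paired 21044 with 1 gene, 1492 with several and 2639 with none. Symbols of 20959 were updated by gene identifier through a RefSeq gene table of GRCm38.p6, used for names only. Probe sets naming several genes were not used, and 0 of them named a member. The background range was set on 1205 receptor probe sets.

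Log2 intensities were compared with limma 3.58.1 in R 4.3.3 (lmFit, eBayes with an intensity trend, two-sided) and Benjamini-Hochberg adjustment over all 21044 probe sets, with no filter and no offset. The script was tested on simulated data. The number of arrays limits the precision. Each probe set has 2 residual degrees of freedom of its own, but limma estimated infinite prior degrees of freedom, so p-values and 95% intervals rest on the intensity trend of the spread (42088 total degrees of freedom) and not on each probe set's own 4 values. An exact permutation test of 2 against 2 arrays cannot go below p = 0.333. Separate cultures are not stated for the replicates, so the p-values measure only the spread between these arrays, which may be technical.

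Every member is named, and from each related list the genes with the highest and lowest ratio. Members and lists were chosen with earlier results of these data known. Alternatives were an offset of 1, 2 other scalings, no intensity trend, a replicate block and leaving out each array. A further one was a filter to probe sets above background on 2 or more arrays, counted over both groups together.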

Additional observations from a re-analysis of the deposited data

How the results depend on the processing

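Of 100 values of member log2 differences under 10 alternatives, 80 kept their sign and their side of the threshold. Part of that count was fixed in advance. Where a fit called no probe set, as in some below, a member not called as deposited could not change side. The fits with the filter, without the intensity trend and with the replicate block leave the log2 differences as they were, so no sign could change. limma called 411 probe sets higher as deposited. It called 763 with an offset of 1 and 1362 (6.47% of all tested) with arrays scaled to their medians, where 2 members were called (*Bcl2l1* and *Bcl2l11*). It called 0 probe sets and 0 members without the intensity trend, although 4757 were higher at an unadjusted p under 0.05. With 1 array left out it also called 0 probe sets and 0 members (955 to 6022 higher at an unadjusted p under 0.05). Such a fit has 1 residual degree of freedom, and the lone array of its group is assumed to vary like the other group.

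The members' median relative to all tested probe sets was -0.083 with quantile normalization, 0.35 among probe sets above background on 2 or more arrays, and 0.40 to 0.83 with 1 array left out. The number of members in the top 5% was 2 with an offset of 1 (*Bcl2l1* and *Bnip3l*), 0 among probe sets above background on 2 or more arrays, and 0 to 1 with 1 array left out, with the 0 coming from the fit without control IgG replicate 2.

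With quantile normalization the log2 difference was -0.062 for *Bcl2*, -0.069 for *Mcl1*, -0.19 for *Bak1*, -0.25 for *Bid*, -0.13 for *Bbc3*, -0.26 and -0.38 for *Bnip3l*, -0.060 for *Bcl2l10* and -0.40 for *Endog*. With arrays scaled to their medians it was -0.045 for *Bcl2*, -0.25 for *Bcl2l10*, -0.16 for *Endog* and -0.090 for *Fbxw7*. With 1 array left out, *Bcl2l10* ran from -0.087 (without CUGBP1 IP replicate 2) to 0.16 (without CUGBP1 IP replicate 1). The cause of these reversals was not tested.

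With the replicate number as a block (replicate block), limma called 11809 probe sets (56.1% of all tested) and 7 of 10 members higher. Same-numbered arrays deviated together (r = 0.64 across probe sets), but 2 pairs are too few to take the numbers as a pairing, and the sources used here do not describe one.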
